A study of Mus musculus with 2 samples.

Results

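The secreted and membrane-bound proteases that cut extracellular matrix, and the inhibitors that hold them in check, were followed across the cells of the mouse mesentery. Every gene of the count matrix whose symbol is Mmp, Adamts, Adamtsl or Timp followed by a number, with a letter allowed after an Mmp number, was taken, which gave 51 of 27998 genes. They comprised 23 matrix metalloproteinases (Mmp), 19 ADAMTS proteases, 5 ADAMTS-like proteins (Adamtsl) and 4 tissue inhibitors of metalloproteinases (Timp). The rule reads symbols alone and no level. Cells came from whole mesentery of 2 untreated, wild-type, male C57BL/6N mice, with 1 library of the Chromium 3′ chemistry (V2) per animal. The animals' age at harvest is not stated in the labels, and both animals form a single group, so comparisons were made between classes of cells found in both. The tissue had been opened with Liberase DH, a blend of bacterial collagenases and a neutral protease, so every transcript was measured after an enzyme digest.

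Matrix metalloproteinases are zinc proteases made as inactive precursors, and between them they cut collagens, gelatin, elastin, proteoglycans and other proteases. ADAMTS proteases carry thrombospondin repeats that hold them in the matrix. Some of them cut the large proteoglycans versican and aggrecan and others trim procollagens, while the ADAMTS-like proteins share the repeats but have no protease domain. TIMPs bind the active site of these enzymes, and the balance of enzyme and inhibitor in connective tissue sets how fast its matrix turns over.

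A run of 10 neighbouring Mmp genes lies on chromosome 9, between positions 7272514 and 7699585 of mm10, and only 5 of these had any UMI (unique molecular identifier, 1 counted transcript) in the analysed cells. Those were Mmp3 with 205, Mmp12 with 153, Mmp8 with 10, Mmp13 with 6 and Mmp27 with 1. Core promoters are printed for 5 genes of this group, because they let Mmp3 and Mmp12, the counted genes of the group, be set beside Mmp13, Mmp8 and Mmp10, which had few or no UMIs. Each runs 5′ to 3′ on the plus strand, from 110 bases before a RefSeq start site to 10 bases after it (GRCm38.p6, the assembly that mm10 names). TGANTCA and TATAAA are in capitals. TGANTCA takes in the phorbol ester response element bound by AP-1 but is wider than it, since any middle base is allowed. The windows are chr9:7445712-7445831 for Mmp3, chr9:7347264-7347383 for Mmp12, chr9:7272404-7272523 for Mmp13, chr9:7502232-7502351 for Mmp10 and chr9:7558319-7558438 for Mmp8.
Mmp3: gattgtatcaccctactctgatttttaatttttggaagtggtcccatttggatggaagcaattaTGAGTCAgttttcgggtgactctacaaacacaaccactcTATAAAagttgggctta
Mmp12: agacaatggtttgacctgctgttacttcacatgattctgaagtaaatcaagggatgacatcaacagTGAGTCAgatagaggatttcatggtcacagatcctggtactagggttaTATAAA
Mmp13: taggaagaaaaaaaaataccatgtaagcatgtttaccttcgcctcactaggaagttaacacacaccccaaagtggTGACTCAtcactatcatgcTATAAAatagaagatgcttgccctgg
Mmp10: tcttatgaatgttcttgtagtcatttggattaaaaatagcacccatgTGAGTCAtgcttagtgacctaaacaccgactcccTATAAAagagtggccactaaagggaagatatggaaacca
Mmp8: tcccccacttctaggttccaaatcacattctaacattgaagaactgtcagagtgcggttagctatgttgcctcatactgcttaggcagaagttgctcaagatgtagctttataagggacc
The TGANTCA letters began 46 bases before the start site in Mmp3, 44 in Mmp12, 35 in Mmp13 and 63 in Mmp10, and they were absent from the Mmp8 window. RefSeq lists another start site for Mmp12, upstream of the one printed, and its window holds neither motif. In windows of 300 bases, searched on both strands, the TGANTCA letters stood in 8 of the 10 genes of the chromosome 9 group, in Mmp20 as TGAATCA. A promoter was listed for 36 of the 51 genes, with 39 start sites, and 20.5% of these windows held the letters, against 7.81% of all 32851 promoters in the RefSeq table. None of the 27 member windows elsewhere in the genome held them. TATAAA on the gene's strand stood in 28.2% of member windows and in 8.32% of all promoters, and in the 4 printed windows that hold both motifs they do not overlap. In the printed Mmp12 window TATAAA lies after the start site, so the distances above hold only for the start sites as RefSeq lists them. Genes with and without UMIs shared the letters: Mmp10, at 0 UMIs, held both motifs, as did Mmp3. A match is a description of letters and not a bound site.

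The 2 libraries held 1517 and 1687 barcodes with 5137671 and 5563521 UMIs, and no barcode sequence occurred in both. After quality filters and doublet calls, 3100 cells were grouped into 18 clusters without use of the members' counts, and 17 clusters were named from marker genes. Names carry "-like", since they were rebuilt here. Fibroblast-like cells were 990, endothelial-like 343, T-like 334, macrophage-like 251, mesothelial-like 245, B-like 234, monocyte-like 214, pericyte-like 156, ILC2-like (group 2 innate lymphoid) 135, NK- or ILC1-like 91 and dendritic-like 77, and 30 cells stayed unnamed. Mesothelial-like cells were 68 of library 1 and 177 of library 2. All 11 blood endothelial markers were present in pericyte-like barcodes, at a summed 7887 and 7826 CPM (UMIs scaled to a common total, as stated in the next paragraph), against 11279 and 9190 in endothelial-like cells. All 12 fibroblast markers were present in monocyte-like barcodes, at 3038 and 4184 CPM, and in mesothelial-like cells at 14997 and 13809 CPM, against 22360 and 20708 CPM in fibroblast-like cells.

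Levels are given as CPM, the UMIs of a gene per 1000000 UMIs of that class in 1 library, with library 1 first and library 2 second. Levels were set side by side within a gene, apart from UMI totals and family sums, which add genes without any scaling between them. Differences are log2 fold changes ± SE from edgeR's quasi-likelihood F-test on UMIs summed per class and library, with Benjamini-Hochberg adjustment over all genes tested (7728 across classes) and calls at an adjusted p of 0.05. Each class has 2 sums, 1 per animal, and the library term takes out any difference between the animals that all classes share. These p-values thus measure only how the differences between classes vary over 2 animals, pooled over classes.

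The 51 genes together took 31519 of 10335992 UMIs. Of these UMIs 17705 were from Timp genes, 9097 from Adamts, 3688 from Mmp and 1029 from Adamtsl genes. Among named classes, fibroblast-like cells held 49.7% of the members' UMIs and 33.1% of all UMIs. Mesothelial-like cells held 18.5% (14.3% of all UMIs), pericyte-like 12.1% (6.77%) and endothelial-like cells 11.9% (9.61%). Summed over all 51 genes, the level was 4569 and 4593 CPM in fibroblast-like cells, 4490 and 3705 in mesothelial-like, 3742 and 3794 in endothelial-like and 5469 and 5477 in pericyte-like cells. Macrophage-like cells had 1048 and 1356 CPM, monocyte-like cells 1092 and 1455, and B-like cells, which should lack these genes, 37.6 and 32.3. The 4 structural classes thus lay above both myeloid classes in each library, and B-like cells lay lowest.

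In these cells 8 genes had no UMI at all: Mmp1a, Mmp1b, Mmp7, Mmp10, Mmp20, Mmp21, Mmp24 and Adamts13. A count of 0 over all kept cells allows up to 0.29 CPM, for counting error only. Mmp13, Mmp27, Mmp28, Adamts6, Adamts17, Adamts18, Adamts20 and Adamtsl2 had 1 to 9 UMIs, 14 genes had 10 to 99, and 21 had at least 100. Those 21 passed the filter on low counts across classes, among them all 4 Timp genes, 7 Mmp, 6 Adamts and 4 Adamtsl genes. Their highest mean level was in fibroblast-like cells for 8 genes, in mesothelial-like and pericyte-like cells for 4 each, in monocyte-like cells for 2, and in endothelial-like, macrophage-like and NK- or ILC1-like cells for 1 each.

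**Figure D1:**
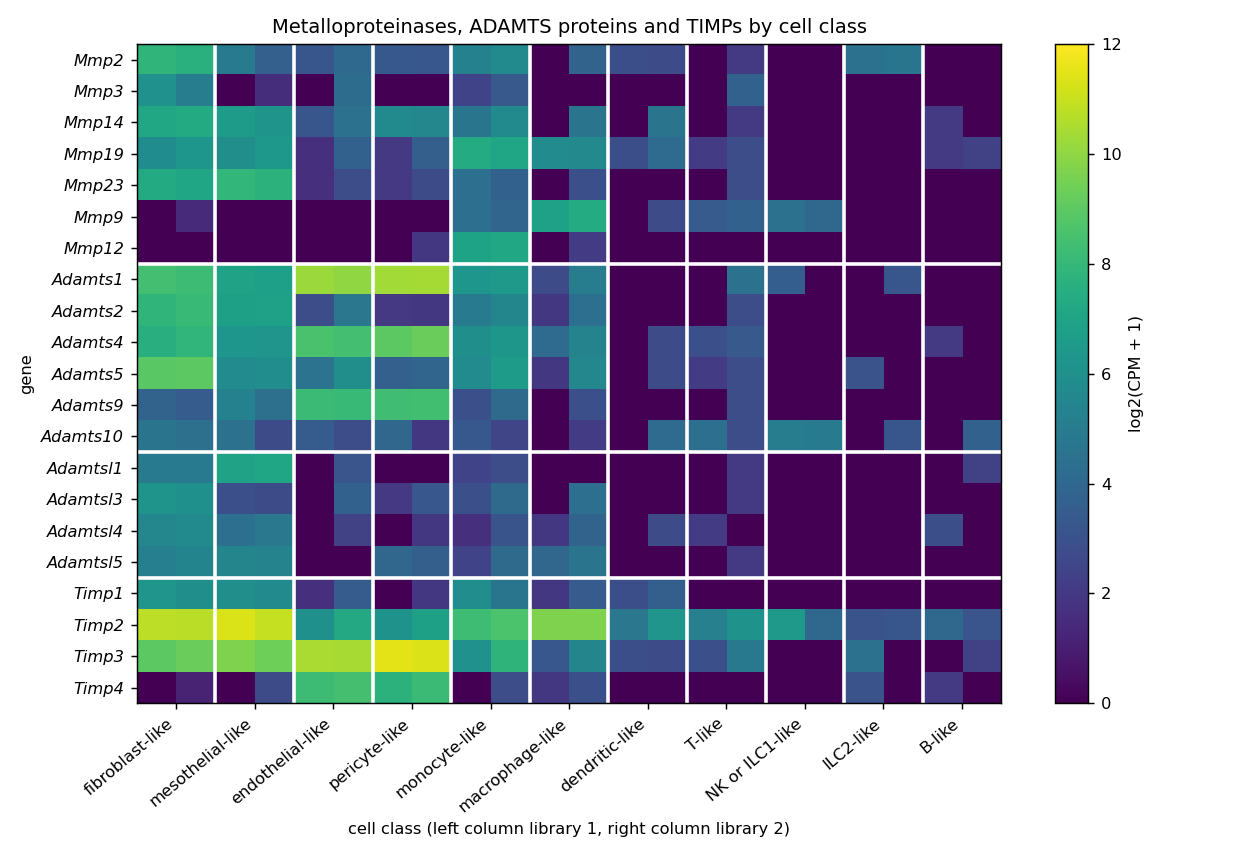
Levels of the 21 members with at least 100 UMIs (rows) in 11 cell classes (paired columns, library 1 left and library 2 right), as log2(CPM + 1). Adamts1, Adamts4, Adamts9, Timp3 and Timp4 are brightest in endothelial-like and pericyte-like columns, most other genes in fibroblast-like and mesothelial-like columns, and Mmp9 and Mmp12 in a myeloid class each.

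Against the mean of the other classes, a mean of logarithms that weights the other 10 classes equally, 17 of the 21 genes were called higher in fibroblast-like cells and 0 lower. Of all 7728 genes tested, 33.5% were called higher and 15.9% lower. The filter on low counts passed a gene, member or not, on the few sums where it was high. Members could thus enter through the fibroblast-like sums alone, so the counts of members called higher are not independent of that filter. The members' median difference was 4.34 on the log2 scale, beside 0.12 over all genes, and 2.95 when groups at 0 UMIs were set to 3 counts. At an unadjusted p under 0.05 edgeR took 18 members in either direction, and DESeq2 called 1 lower. Of all called genes, 67.8% were higher here, and 46.4% when the other cells were pooled into 1 sum per library. Against endothelial-like cells' own mean of other classes, taken the same way, 8 of 21 were called higher in endothelial-like cells and 0 lower (26.7% and 11.1% of all genes), with a median of 0.89 against 0.15. That median was -0.15 with groups at 0 set to 3 counts, so its sign depends on them. At an unadjusted p under 0.05 edgeR took the same number, 8, and DESeq2 called 1 lower. With the other cells pooled into 1 sum, 14 members were called lower in endothelial-like and 5 in fibroblast-like cells.

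Among the inhibitors, Timp2 (chromosome 11, 118301069 to 118355740, as the GENCODE annotation of mm10 places it), which blocks most metalloproteinases and also helps membrane-type enzymes activate Mmp2, was at 1805 and 1709 CPM in fibroblast-like and 2531 and 1993 CPM in mesothelial-like cells. Macrophage-like cells had 807 and 810 CPM and monocyte-like cells 305 and 390 CPM. Pericyte-like cells had 67.7 and 111 CPM, endothelial-like 63.8 and 152, and the lymphoid and dendritic-like classes 87.2 or less. Both stromal classes lay above every other class in each library. Timp2 was higher in fibroblast-like cells than in the mean of the other classes by 4.17 ± 0.15 (adjusted p = 9.11e-26), but its difference from mesothelial-like cells, -0.21 ± 0.22, was not called (adjusted p = 0.507). With each cell thinned to 1000 UMIs, 76.9% and 77.6% of fibroblast-like cells carried a Timp2 UMI (96.7% and 94.2% unthinned), against 0.8% and 1.03% of B-like cells (3.76% and 1.98% unthinned). Median depths were 3396 and 1830 UMIs in those classes.

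Timp3, the inhibitor that binds matrix and also blocks ADAMTS and ADAM proteases (chromosome 10, 86300372 to 86349506), was at 2948 and 2609 CPM in pericyte-like cells and 1413 and 1373 CPM in endothelial-like cells. Mesothelial-like cells had 819 and 645 CPM, fibroblast-like 510 and 621, monocyte-like 65.4 and 221 and macrophage-like 8.62 and 43.0. The order of pericyte-like, endothelial-like and then the other stromal cells held in both libraries, while mesothelial-like and fibroblast-like cells did not differ by the test (-0.22 ± 0.26, adjusted p = 0.555). Timp3 was higher in endothelial-like cells than in the mean of the other classes by 5.10 ± 0.24 (adjusted p = 8.53e-22). After thinning, 90.5% and 84.8% of pericyte-like cells (100% and 98.8% unthinned) and no B-like cell carried a UMI. That 0 of 125 and 0 of 97 allows up to 2.4% and 3.09% of cells with a UMI at this depth, which does not limit the share of cells expressing the gene (0 and 0.99% with a UMI unthinned).

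Timp4, the inhibitor with the narrowest known expression (chromosome 6, 115241892 to 115252205), was found at 302 and 352 CPM in endothelial-like and 206 and 285 CPM in pericyte-like cells. No other class exceeded 7.28 CPM in either library. At a finer clustering, 32 cells of the endothelial-like class formed an adipocyte-like cluster, where Timp4 was at 693 and 444 CPM, against 289 and 393 CPM in the larger endothelial-like cluster. Its difference in endothelial-like cells from the mean of the other classes was 7.03 ± 0.27 (adjusted p = 1.1e-23). The 321 endothelial-like UMIs were spread over 147 of 343 cells. Adipocyte markers were at 924 and 1751 CPM in endothelial-like cells. In the 84 and 61 endothelial-like cells without an adipocyte marker UMI, Timp4 was at 227 and 305 CPM, and in those with one at 362 and 371 CPM, so it was present in both.

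Timp1, an inhibitor that is induced in many injured tissues, was at 74.4 and 62.1 CPM in fibroblast-like, 60.3 and 50.6 CPM in mesothelial-like and 58.9 and 24.7 CPM in monocyte-like cells. Dendritic-like cells had 6.48 and 11.6 CPM, and every other class was at 10.1 or less. Fibroblast-like cells were 4.85 ± 0.38 above the mean of the other classes (adjusted p = 3.53e-14), and 0.45 ± 0.26 above mesothelial-like cells, which was not called (adjusted p = 0.193).

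Mmp2, the constitutive gelatinase of connective tissue (chromosome 8, 92827291 to 92853420), was at 229 and 197 CPM in fibroblast-like cells, where 87.1% of its UMIs lay. Monocyte-like cells had 37.1 and 51.0 CPM and mesothelial-like cells 31.2 and 11.9 CPM. ILC2-like cells had 3 UMIs in each library, 21.8 and 24.5 CPM, which is no more than the 3 counts that a count of 0 would allow. Fibroblast-like cells lay above every other class in both libraries, by 5.41 ± 0.22 over their mean (adjusted p = 1.55e-23) and by 3.67 ± 0.26 over mesothelial-like cells (adjusted p = 2.69e-15). After thinning, 21.5% and 19.6% of fibroblast-like cells carried a UMI (50% and 39.1% unthinned), and none of the B-like cells did, thinned or not.

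Mmp14, the membrane-anchored protease that activates Mmp2, was at 142 and 162 CPM in fibroblast-like, 96.0 and 72.4 in mesothelial-like and 50.1 and 45.7 CPM in pericyte-like cells. These 3 classes kept that order in both libraries. Fibroblast-like cells were 1.10 ± 0.21 above mesothelial-like cells (adjusted p = 5.72e-05), a call that DESeq2 did not make. Mmp23, a membrane-tethered enzyme that lacks the usual haemopexin domain, had the opposite order. It stood at 243 and 205 CPM in mesothelial-like and 162 and 136 CPM in fibroblast-like cells, and at 19.6 or less elsewhere. The difference of -0.43 ± 0.16 between fibroblast-like and mesothelial-like cells was called (adjusted p = 0.0303), but not with DESeq2, without the low-count filter or without the library block.

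Mmp3, the stromelysin that cuts proteoglycans and activates other metalloproteinases, was at 65.7 and 32.9 CPM in fibroblast-like cells. Endothelial-like cells had 0 and 18.2 CPM, T-like cells 0 and 12.3, monocyte-like 4.36 and 9.28 and mesothelial-like 0 and 1.98, and no other class had a UMI. Few cells carried it: the 168 UMIs of fibroblast-like cells were in 42 of 990 cells, 70 of them in 5 cells and 24 in a single cell. The pooled ratio to mesothelial-like cells, 168 against 2 UMIs, was 36.2 with a counting interval of 9.87 to 302. edgeR called it higher (5.0 ± 0.76, adjusted p = 1.27e-06) and DESeq2 did not. The difference was 6.06 in library 1 and 3.5 in library 2.

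Mmp19, a secreted protease with broad substrates, was at 166 and 131 CPM in monocyte-like cells, 60.3 and 82.3 in mesothelial-like, 55.3 and 79.1 in fibroblast-like and 54.6 and 49.6 CPM in macrophage-like cells. Monocyte-like cells were highest in both libraries, and the mesothelial-like and fibroblast-like ranges overlapped (0.03 ± 0.22, adjusted p = 0.948). Of the less counted Mmp genes, Mmp11, a stromelysin of remodelling stroma, had 76 UMIs, 50 of them in fibroblast-like cells. The membrane-type enzyme Mmp15 had 45, 28 of them in endothelial-like cells, and its relative Mmp16 had 19, 11 of them in mesothelial-like cells. Mmp17 and Mmp25, which are held by lipid anchors, had 17 and 11 UMIs, with 5 in mesothelial-like and 5 in dendritic-like cells. Mmp8, the neutrophil collagenase, had 10, of which 6 were in monocyte-like cells.

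Of the proteases that cut versican and aggrecan, Adamts5 was the one with most of its UMIs in fibroblast-like cells, 87.3%. It stood at 484 and 499.6 CPM there, 54.5 and 99 in monocyte-like, 53.6 and 58.5 in mesothelial-like, 22.6 and 60.7 in endothelial-like and 11.8 and 14.3 CPM in pericyte-like cells. Fibroblast-like cells lay above all other classes in both libraries, by 6.18 ± 0.20 over their mean (adjusted p = 7.15e-27) and by 3.32 ± 0.20 over mesothelial-like cells (adjusted p = 2.44e-17).

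Adamts1, its neighbour on chromosome 16 (both within 85793827 to 85901828), was ordered otherwise. Pericyte-like cells had 1278 and 1333 CPM and endothelial-like cells 1183 and 1042 CPM. Fibroblast-like cells had 339.6 and 301 CPM, mesothelial-like 118 and 108, and monocyte-like 78.5 and 85.1. Both vessel classes lay above every other class in each library. Adamts4, another of the versican and aggrecan proteases, had the same leading classes, at 495 and 605 CPM in pericyte-like and 379 and 338 in endothelial-like cells. Its fibroblast-like level was 189 and 239 CPM and its mesothelial-like level 78.1 and 74.3 CPM. Adamts9, a conserved versican protease, was at 315 and 325 CPM in pericyte-like and 292 and 273 in endothelial-like cells. Mesothelial-like cells had 37.9 and 20.8 CPM of it and fibroblast-like cells 13.3 and 10.3, so its vessel levels stood apart from all others in both libraries.

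Against the mean of the other classes, endothelial-like cells were higher by 6.37 ± 0.30 for Adamts9 (adjusted p = 7.33e-21), 5.93 ± 0.23 for Adamts1 (adjusted p = 2.89e-24) and 4.70 ± 0.26 for Adamts4 (adjusted p = 4.08e-19). Adamts5 (2.04, adjusted p = 0.00263), Adamts2 (1.96, adjusted p = 0.0426) and Mmp3 (3.04, adjusted p = 0.0269) were called higher too, but at low levels: Adamts2 was at 6.17 and 26.3 CPM and Mmp3 had all 9 of its endothelial-like UMIs in 3 cells of library 2. At a finer clustering these 9 fell in a cluster with 10 cells of library 2, which also held 50 Timp2, 10 Adamts5, 8 Mmp14 and 7 Adamts2 UMIs. With the other cells pooled into 1 sum, Adamts2 and Adamts5 were lower in endothelial-like cells (-2.90 and -2.34) and Mmp3 was at -1.17. Without library 2 the Mmp3 value was -0.85. Fibroblast markers stood at 523 and 1531 CPM in endothelial-like cells, and their part in these 3 calls was not tested.

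**Figure D2:**
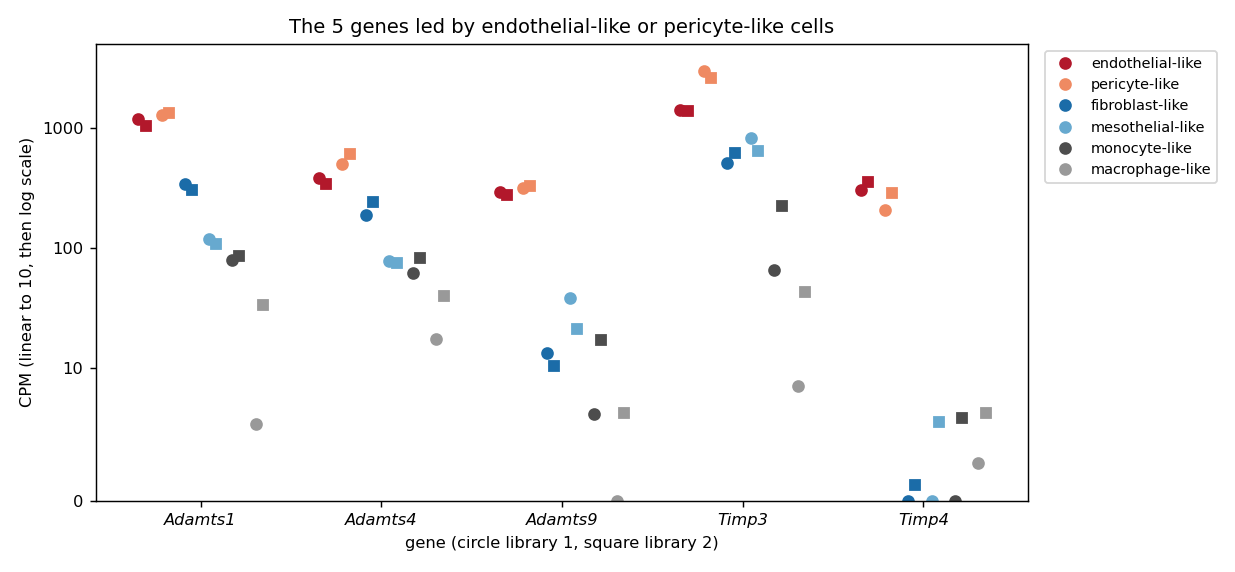
Levels in CPM (linear to 10, then a log scale) of the 5 members led by endothelial-like or pericyte-like cells, in 6 classes, with a circle for library 1 and a square for library 2. For each gene all 4 vessel points lie above all points of the other classes.

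Between the vessel classes few genes of any kind were called, members included. Of 21 genes, 2 were called higher in pericyte-like than in endothelial-like cells and 0 lower, beside 2.59% and 0.983% of all genes, with a median of -0.07 against -0.05 (0.02 with groups at 0 set to 3 counts). Timp3 was higher by 0.91 ± 0.25 (adjusted p = 0.0291). Adamtsl5 had 14.7 and 11.4 CPM in pericyte-like cells and no UMI in endothelial-like cells, 9 UMIs against 0 (adjusted p = 0.0282). With the 0 set to 3 counts over both libraries the ratio was 4.26, and the lower limit from counting error was 2.81-fold. Adamts4 (0.52 ± 0.20, adjusted p = 0.204), Timp4 (-0.51 ± 0.19, adjusted p = 0.161), Adamts1 (0.14 ± 0.22, adjusted p = 0.869) and Adamts9 (0.09 ± 0.18, adjusted p = 0.907) were not called. Of the 156 pericyte-like barcodes, 154 carried a blood endothelial marker UMI, so the classes could not be compared without such barcodes. DESeq2 called neither gene, the Timp3 call was lost without the library block (adjusted p = 0.199), and edgeR took 8 members at an unadjusted p under 0.05, DESeq2 5.

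Adamts2, which removes the amino-terminal propeptide of fibrillar procollagens, was at 233 and 277 CPM in fibroblast-like, 114 and 117 in mesothelial-like and 30.5 and 44.9 in monocyte-like cells. Pericyte-like cells had 2.95 and 2.85 CPM. Its level in fibroblast-like cells was above that in any other class in both libraries, by 6.52 ± 0.25 over their mean (adjusted p = 6.84e-24) and by 1.34 ± 0.17 over mesothelial-like cells (adjusted p = 2.66e-08). Its relatives Adamts3 and Adamts14 had 16 and 25 UMIs, 12 and 13 of them in fibroblast-like cells.

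Adamts10, which acts on fibrillin microfibrils, had 75 of its 134 UMIs in fibroblast-like cells, at 23.6 and 20.7 CPM. Its highest level, 32.7 and 30.8 CPM in NK- or ILC1-like cells, rests on 3 and 2 UMIs, at or under the 3 counts that a count of 0 would allow. Fibroblast-like cells were 1.54 ± 0.39 above the mean of the other classes (adjusted p = 0.000893). Adamts12, which cuts cartilage oligomeric matrix protein, had 41 UMIs, 26 in fibroblast-like and 12 in pericyte-like cells, and none in endothelial-like cells. With that 0 set to 3 counts over both libraries, the ratio of pericyte-like to endothelial-like cells was 5.68, and the lower limit from counting error alone was 3.95-fold. Its relative Adamts7 had 23, with 10 in mesothelial-like cells. Adamts15 had 24, with 8 in pericyte-like cells, and Adamts8 had 10, with 4 in mesothelial-like cells.

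Adamts16 and Adamts19 were rare, and most of their UMIs were in fibroblast-like cells. All 39 Adamts16 UMIs of named classes were in fibroblast-like cells, 38 of them in 34 cells of cluster 1 (29 and 9 UMIs by library) and 1 in cluster 8. Its pooled level in cluster 1 was 63.4 times that of the other fibroblast-like clusters, with a counting interval of 10.7 to 2571. Of 26 Adamts19 UMIs, 21 were in fibroblast-like cells, with 11 in cluster 7, 8 in cluster 8, 2 in cluster 1 and 0 in cluster 2, and mesothelial-like and monocyte-like cells had 2 each. Neither gene entered the test between clusters, so these are counts without a test.

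The ADAMTS-like proteins, which sit on microfibrils, were counted at low levels and split between the stromal classes. Adamtsl3 was at 73.8 and 64.5 CPM in fibroblast-like and 6.69 and 5.95 in mesothelial-like cells, a difference of 3.64 ± 0.47 (adjusted p = 4.13e-08). Adamtsl4 was at 46.1 and 50.5 against 20.1 and 26.8 CPM (1.19 ± 0.35, adjusted p = 0.00632). Adamtsl1 had the opposite order, at 28.8 and 28.6 CPM in fibroblast-like and 120.5 and 135 CPM in mesothelial-like cells, a difference of -1.98 ± 0.25 (adjusted p = 3.08e-08). Adamtsl5 was at 35.2 and 41.4 against 42.4 and 40.6 CPM, ranges that overlapped (0.08 ± 0.31, adjusted p = 0.885). DESeq2 did not call Adamtsl3 or Adamtsl4 here.

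Between fibroblast-like and mesothelial-like cells, which line the peritoneum, 9 of 21 members were called higher and 3 lower, beside 16.6% and 17.4% of all genes, with a median of 1.04 against -0.03 (0.35 with groups at 0 set to 3 counts). The 9 were Mmp2, Mmp3, Mmp14, Adamts1 (1.67 ± 0.25), Adamts2, Adamts4 (1.66 ± 0.22), Adamts5, Adamtsl3 and Adamtsl4. The 3 lower genes were Adamtsl1, Mmp23 and Adamts9, the last by -1.0 ± 0.38 (adjusted p = 0.0393), a call lost without the library block (adjusted p = 0.0553). None of the 4 Timp genes was among the called genes. DESeq2 called 7 of these genes in all.

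The fibroblast-like class was made up of 4 clusters, and the members were left out of the clustering and then tested between them. The clusters were drawn from the same cells, on genes that may vary together with the members. The members' p-values between clusters are therefore not independent of the clustering. The listed partners, plasminogen, ADAM, cathepsin and other secreted protease genes were kept out as well. Versican and the genes induced by dissociation were not kept out. Cluster 1 held 302 cells and was led by Pi16, Krtdap and Sbsn, cluster 2 held 300 and was led by Cxcl14, Fam150b and Inmt, cluster 7 held 199 and was led by Has1 and Tnfaip6, and cluster 8 held 189 and was led by Mgp, Mfap4 and Eln. Of the members, 17 passed the filter on low counts, which left 5290 genes in this fit. This filter, too, passed a gene on the clusters where it was high. Each cluster was set against the average of the remaining clusters, again taken over logarithms.

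Cluster 1 was higher for the inhibitors Timp2 and Timp3 and the protease Adamts5, and lower for 6 other proteases. Of 17 members, 5 were called higher and 6 lower, beside 11.9% and 13.2% of all genes, with a median of -0.17 against 0.01. Timp2 was at 2457 and 2178 CPM in cluster 1, 1335 and 1320 in cluster 2, 1465 and 1596 in cluster 7 and 1390 and 1445 in cluster 8. Timp3 was at 737 and 934 CPM in cluster 1, 338 and 356 in cluster 2, 451 and 548 in cluster 7 and 321 and 448 in cluster 8. For both inhibitors cluster 1 lay above every other cluster in each library, by 0.63 ± 0.09 for Timp2 (adjusted p = 1e-06) and 0.96 ± 0.10 for Timp3 (adjusted p = 1.7e-09). Timp1 was at 94.6 and 62.9 CPM in cluster 1 and 33.4 and 54.0 in cluster 2, and was not called in cluster 1 (0.28 ± 0.21, adjusted p = 0.393).

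The versican and aggrecan proteases Adamts5 and Adamts4 differed in the place of cluster 1, while clusters 2, 7 and 8 had the same order of means for both. Adamts5 was at 774 and 754 CPM in cluster 1, 369 and 400 in cluster 2, 287 and 339 in cluster 7 and 207 and 321 in cluster 8, and was higher in cluster 1 by 1.20 ± 0.11 (adjusted p = 7.15e-11). Adamts4 was at 60.6 and 32.3 CPM in cluster 1, 347 and 630 in cluster 2, 290 and 201 in cluster 7 and 139 and 157 in cluster 8. It was lower in cluster 1 by -2.51 ± 0.24 (adjusted p = 1.13e-10) and higher in cluster 2 by 2.04 ± 0.17 (adjusted p = 1.32e-11). Its cluster 2 difference was 1.36 in library 1 and 2.63 in library 2. Cluster 1 was the highest cluster for Adamts5 and the lowest for Adamts4 in both libraries. Versican itself (Vcan), a substrate of both, was at 301 and 311 CPM in cluster 1 and 118 and 71.1 in cluster 2, called higher in cluster 1 (1.15) and lower in cluster 2 (-0.98). Vcan itself was not kept out of the clustering, so its calls between clusters are not independent of it either. Adamts1 differed less, at 358 and 255 CPM in cluster 1, 280 and 309 in cluster 2, 441 and 356 in cluster 7 and 288 and 318 in cluster 8, and was called in none of them.

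Of the 5 metalloproteinases tested, Mmp2, Mmp3, Mmp14 and Mmp19 were called lower in cluster 1 and Mmp23, at 158 and 107 CPM, was not called. Mmp2 was at 149 and 90.1 CPM in cluster 1, 318 and 299 in cluster 2, 200 and 138 in cluster 7 and 301 and 338 in cluster 8. The first of these lay below clusters 2 and 8 in both libraries, and the test gave -1.16 ± 0.16 for cluster 1 (adjusted p = 3.97e-07), 0.76 ± 0.15 for cluster 2 (adjusted p = 0.000181) and 0.81 ± 0.16 for cluster 8 (adjusted p = 0.000457). Mmp19 was at 26.6 and 35.7 CPM in cluster 1 and 86.8 and 132 in cluster 2, lower in the first (-1.51 ± 0.24, adjusted p = 4.8e-06) and higher in the second (1.00 ± 0.21, adjusted p = 0.000462). Mmp14 was at 127 and 100 CPM in cluster 1 and 191 and 218 in cluster 2, with calls in the same directions (-0.62 ± 0.17 and 0.59 ± 0.17, adjusted p = 0.00502 and 0.01) that DESeq2 did not make. In cluster 1 the Mmp14 difference was -0.16 in library 1 and -0.94 in library 2. Adamts2 was lower in cluster 1 as well, at 198 and 214 CPM (-0.53 ± 0.13, adjusted p = 0.00206), again without a call from DESeq2.

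Mmp3 was the member with the widest spread between clusters. Cluster 8 had 188 and 137 CPM, cluster 2 had 97.9 and 24.5, cluster 7 had 40.1 and 2.9, and cluster 1 had 0 and 3.4. Cluster 8 was highest and cluster 1 held only 2 UMIs, against 166 in the other clusters, a ratio of 49.7 with a counting interval of 13.5 to 414. The test gave 3.64 ± 0.34 for cluster 8 (adjusted p = 2.38e-10), 1.76 ± 0.40 for cluster 2 (adjusted p = 0.00156) and -5.07 ± 0.63 for cluster 1 (adjusted p = 4.44e-08). The 99 UMIs of cluster 8 lay in 21 of its 189 cells, 66 of them in 5 cells. The cluster 1 difference was -6.52 in library 1 and -2.44 in library 2, and that of cluster 2 was 2.32 and 0.94. The cluster 2 call was lost with the other fibroblast-like cells pooled into 1 sum (0.45, adjusted p = 0.314) and with DESeq2 (adjusted p = 0.0801). Per library the cluster 7 difference was 0.63 in library 1 and -2.69 in library 2, so its sign differed between animals.

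The ADAMTS-like genes also differed between clusters. Adamtsl4 was at 79.8 and 98.5 CPM in cluster 1 and 17.8 and 17.2 in cluster 2, higher in the first by 1.78 ± 0.23 (adjusted p = 1.39e-07) and lower in the second by -1.20 ± 0.36 (adjusted p = 0.0175). Adamtsl1 was higher in cluster 1 (1.06 ± 0.31, adjusted p = 0.00967), at 44.3 and 42.5 CPM. Adamtsl3 was lower in cluster 8 (-1.28 ± 0.32, adjusted p = 0.00776), at 38.9 and 23.4 CPM against 72.4 and 88.4 in cluster 1. DESeq2 kept the Adamtsl4 call in cluster 1, but not that in cluster 2, nor those of Adamtsl1 and Adamtsl3.

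In cluster 2, 5 members were called higher (Mmp2, Mmp3, Mmp14, Mmp19 and Adamts4) and 5 lower (Timp1, Timp2, Timp3, Adamtsl4 and Adamtsl5), beside 8.83% and 7.09% of all genes. The median was 0.06 against 0.01. Thus 3 Timp genes were lower, Timp3 by -0.60 ± 0.12 (adjusted p = 0.000381), Timp2 by -0.33 ± 0.10 (adjusted p = 0.0168) and Timp1 by -0.77 ± 0.27 (adjusted p = 0.0427). Timp4, with 2 UMIs in all fibroblast-like cells, was too rare for this test. The Timp1 difference was -1.33 in library 1 and -0.27 in library 2. Without the library block the Timp1 and Timp2 calls were lost (adjusted p = 0.087 and 0.135), and DESeq2 called 3 of the 10 genes. DESeq2 called neither Timp1 (adjusted p = 0.562) nor Timp2 (adjusted p = 0.162). The Timp1 call was also lost in edgeR with the stricter cell filter (adjusted p = 0.0618) and with doublets kept (adjusted p = 0.151).

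In cluster 8, 3 members were called higher and 3 lower, beside 3.86% and 1.64% of all genes, with a median of 0.24 against 0.02. The higher ones were Mmp3, Mmp2 and Mmp23, the last at 220 and 211 CPM (0.71 ± 0.17, adjusted p = 0.00475). The lower ones were Adamts5 (-0.77 ± 0.15, adjusted p = 0.000357), Adamtsl3 and Timp3 (-0.45 ± 0.13, adjusted p = 0.0288). By library, Adamts5 differed by -1.06 and -0.54 and Mmp2 by 0.51 and 1.12. DESeq2 called 2 of the 6. In cluster 7, edgeR called 0 members in either direction, beside 1.63% higher and 0.34% lower of all genes, with a median of -0.06 against 0.02. At an unadjusted p under 0.05 edgeR took 5 members, and DESeq2 called 0 and took 1 unadjusted. The smallest adjusted p in cluster 7 was that of Adamts4 (0.72 ± 0.21, adjusted p = 0.0705).

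**Figure D3:**
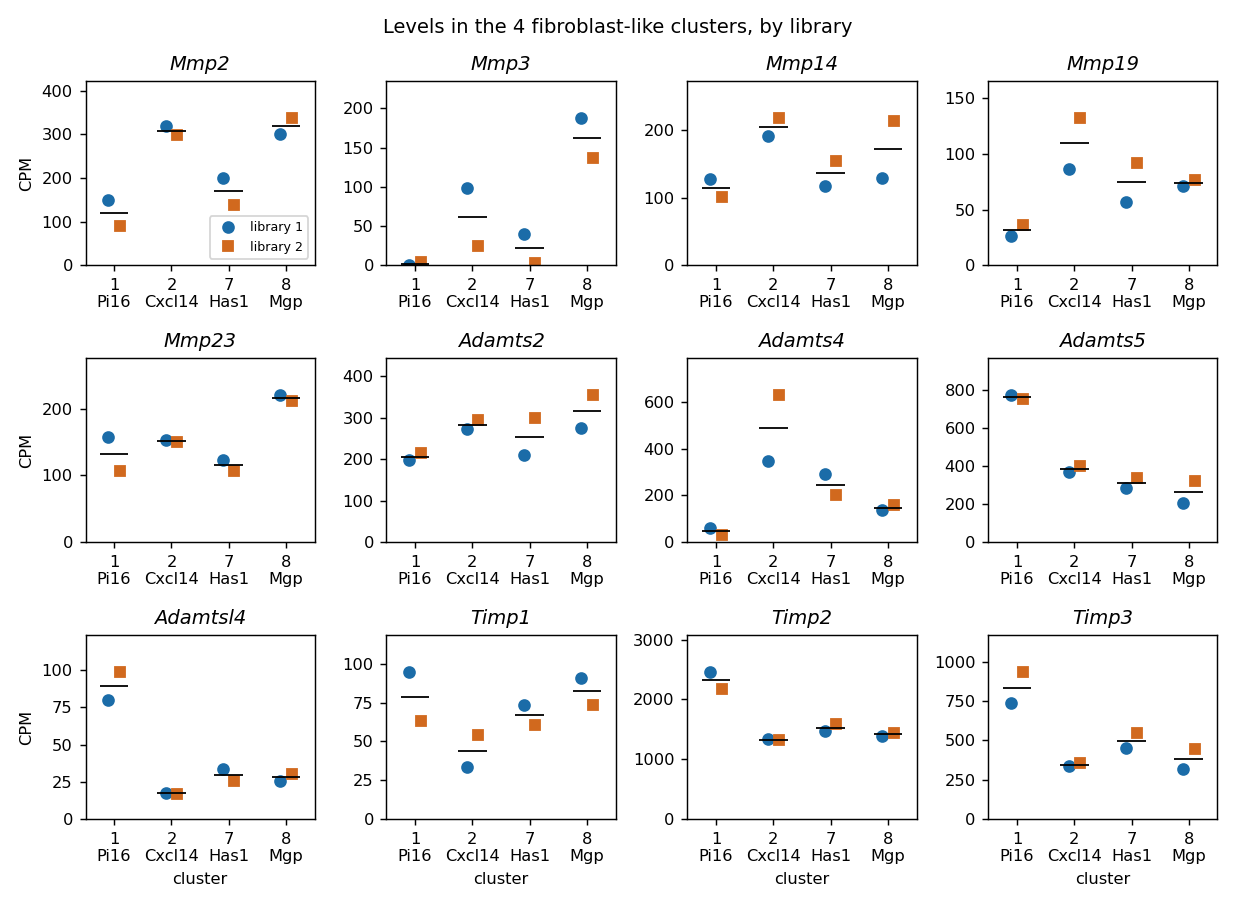
Levels in CPM of 12 members in the 4 fibroblast-like clusters, each named by number and a leading gene, with a circle for library 1, a square for library 2 and a bar at their mean. Timp2, Timp3, Adamts5 and Adamtsl4 are highest in cluster 1, Adamts4 in cluster 2 and Mmp3 in cluster 8, in both libraries.

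Summed by family, cluster 1 had 3289 and 3176 CPM of Timp and 476 and 348 CPM of Mmp transcripts. Cluster 2 had 1707 and 1729 of Timp and 872 and 851 of Mmp, cluster 7 had 1989 and 2205 and 544 and 505, and cluster 8 had 1801 and 1974 and 933 and 1030. Cluster 1 was highest for Timp and lowest for Mmp in both libraries. Transcripts of 19 genes known to be induced by tissue dissociation, among them AP-1 subunits, moved with these differences. They summed to 15542 and 12913 CPM in cluster 1, 23442 and 25489 in cluster 2, 19538 and 18445 in cluster 7 and 20383 and 23370 in cluster 8. Of the 19, 13 were called lower and 2 higher in cluster 1, and 10 higher and 2 lower in cluster 2, beside 13.2% of all genes lower and 11.9% higher in cluster 1, and 8.83% higher and 7.09% lower in cluster 2. These 19 genes were themselves not kept out of the clustering, so their calls between the clusters are not independent of it either. The part of these genes in the differences of Adamts4, Mmp3 and the other members was not tested. The same sum was 29853 and 24928 CPM in endothelial-like and 29408 and 27761 in pericyte-like cells, against 19141 and 19107 in all fibroblast-like and 5272 and 3859 in B-like cells.

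The myeloid classes each carried their own members. Mmp9, the inducible gelatinase (chromosome 2, 164940780 to 164955850), was at 115 and 165 CPM in macrophage-like cells, 19.6 and 13.9 in monocyte-like and 21.8 and 15.4 in NK- or ILC1-like cells (2 and 1 UMIs). Macrophage-like cells were highest in both libraries, with 90 UMIs spread over 64 of 251 cells. After thinning, 15.3% and 14.8% of macrophage-like cells carried a UMI (23% and 27.9% unthinned), and none of the B-like cells did. Mmp12, the macrophage elastase, was at 122 and 147 CPM in monocyte-like cells and at 0 and 3.31 CPM in macrophage-like cells. Its 151 monocyte-like UMIs lay in 21 of 214 cells, 103 of them in 5 cells and 40 in a single cell, so few cells decide its level. Of the 2 monocyte-like clusters, cluster 10 (led by Lyz1 and Ear2, 155 cells) had 130 and 71.7 CPM, and cluster 15 (led by Mmp12 itself and Chil3, 59 cells) had 45.6 and 354.5 CPM, an order that differed between libraries. Mmp13, a collagenase printed above for its promoter, had 6 UMIs.

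Between monocyte-like and macrophage-like cells, 9 of 21 members were called higher and 2 lower, beside 10.1% of all genes in each direction (777 and 781 genes), with a median of 1.69 against 0.11 (1.80 with groups at 0 set to 3 counts). Mmp9 (-3.22 ± 0.43, adjusted p = 2.78e-07) and Timp2 (-1.36 ± 0.24, adjusted p = 2.47e-05) were the lower genes. Mmp12 was higher, with 151 UMIs against 1 and a pooled ratio of 88.9 (counting interval 15.7 to 3534), and so was Mmp19 (1.33 ± 0.30, adjusted p = 0.000907). Timp1 (2.52 ± 0.68, adjusted p = 0.00543) differed by 3.95 in library 1 and 1.24 in library 2. The other 6 were genes led by fibroblast-like or vessel cells: Mmp2, Timp3, Adamts1, Adamts2, Adamts4 and Adamts5. Of these, Mmp2 differed by 5.25 in library 1 and 1.87 in library 2, Adamts1 by 3.56 and 1.34, Adamts2 by 3.03 and 1.14, and Adamts5 by 3.84 and 1.08. DESeq2 did not call Mmp12, Adamts2 or Adamts5.

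Those 6 genes moved with the fibroblast markers named above. In the 44 and 74 monocyte-like cells without any fibroblast marker UMI there were 0 and 0 Mmp2 UMIs, 0 and 1 Adamts1 UMIs and 0 and 3 Timp3 UMIs. In the 37 and 59 cells with one there were 17 and 33, 36 and 54, and 30 and 140. Among cells of both classes without a marker UMI, the log2 ratio of monocyte-like to macrophage-like CPM was below 0 for Adamts1 (-1.47), Adamts2 (-1.79), Adamts4 (-2.13), Adamts5 (-0.19) and Timp3 (-0.91), the reverse of the fitted direction. These ratios rest on few UMIs and carry no test. For Adamts1 and Timp3 the monocyte-like counts are no more than the 3 that a count of 0 would allow, so the signs are not firm. Mmp12, Mmp19, Mmp9 and Timp2 kept their direction in the cells without a marker UMI. Mmp12 had 247 and 237 CPM in the monocyte-like cells without a marker UMI. Mmp19 had 193 and 158 CPM there, against 58.3 and 39.6 in such macrophage-like cells, Mmp9 had 14.8 and 20.6 against 112 and 173, and Timp2 had 148 and 148 against 739 and 668. With doublets kept, or at a finer clustering, the monocyte-like class shrank from 214 to 59 or 60 cells, and Mmp19 was then not called (adjusted p = 0.477 and 0.637). The macrophage-like class grew from 251 to 363 or 354 cells in these settings, and the dendritic-like class from 77 to 130 or 126. Cluster 10, with 155 of the 214 monocyte-like cells, had been named from 4 markers, the fewest that the naming rule allowed.

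**Figure D4:**
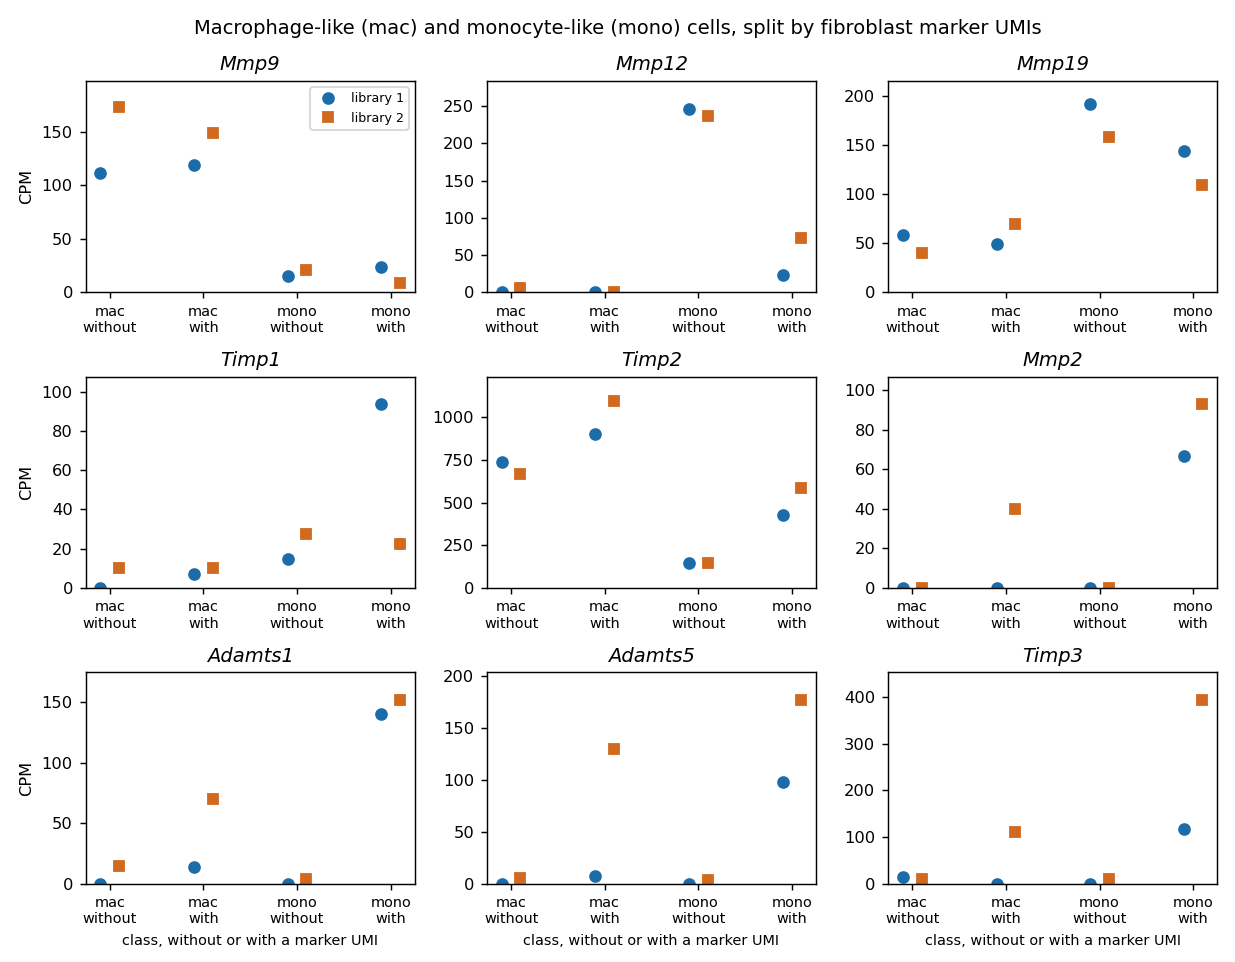
Levels in CPM of 9 members in macrophage-like and monocyte-like cells, each split into cells without and with a UMI of the 12 fibroblast markers, with a circle for library 1 and a square for library 2. Mmp2, Adamts1, Adamts5 and Timp3 are near 0 in the monocyte-like cells without a marker UMI, while Mmp12 and Mmp19 are present there.

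Other genes of matrix turnover were counted from fixed lists, beside 33.5% of all genes called higher and 15.9% lower in fibroblast-like cells. Of 13 tested partners in activation and clearance of these proteases, 12 were called higher in fibroblast-like cells than in the mean of the other classes and 1, the proprotein convertase gene Furin, lower. Lrp1, the receptor that clears many of these proteases, was at 632 and 646 CPM there (5.02), and Cd63, a partner of Timp1 at the cell surface, at 984 and 669 CPM (4.24). Of 7 plasminogen activation genes, 6 were higher and 1, the receptor gene Plaur, lower. Of 7 membrane ADAM proteases, 5 were higher and 0 lower, and of 12 cathepsins and cystatins 6 were higher and 2, Ctsc and Ctss, lower. All 4 other secreted matrix proteases tested were higher, among them the procollagen C-proteinase gene Bmp1, at 142 and 127 CPM (5.42). Against mesothelial-like cells, where 16.6% of all genes were called higher and 17.4% lower, 7 of the 13 partners were higher and 3 lower. The split was 4 and 2 of 7 plasminogen genes, 3 and 2 of 7 ADAM genes, 3 and 2 of 12 cathepsins and cystatins, and 2 and 2 of the 4 other secreted proteases.

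Within the fibroblast-like class some of these lists held calls and others few. Of all genes, 11.9% were called higher and 13.2% lower in cluster 1, 8.83% and 7.09% in cluster 2, 1.63% and 0.34% in cluster 7, and 3.86% and 1.64% in cluster 8. Of 10 cathepsins and cystatins, 7 were called lower in cluster 1 and 0 higher, while 4 were higher and 0 lower in cluster 2 and again in cluster 8, and 1 was lower in cluster 7. Cst3, the secreted cystatin that blocks cysteine cathepsins, was at 539 and 460 CPM in cluster 1 (-1.28), 1228 and 1173 in cluster 2 (0.52) and 1908 and 1515 in cluster 8 (1.17). Of 12 partners, 3 were higher and 5 lower in cluster 1, 2 and 3 in cluster 2, 0 and 0 in cluster 7, and 4 and 1 in cluster 8. Of 7 plasminogen genes, 2 were higher and 1 lower in cluster 1, 1 and 3 in cluster 2, 1 and 0 in cluster 7, and 0 and 0 in cluster 8. Of 6 ADAM genes, 1 was higher in cluster 1, 1 lower in cluster 2, and none was called in clusters 7 and 8 by edgeR. Pcolce, an enhancer of procollagen C-proteinase, was at 248 and 204 CPM in cluster 1 and 667 and 472 in cluster 8 (-1.17 and 0.68). Its relative Pcolce2 was at 759 and 710 CPM in cluster 1 and 381 and 329 in cluster 2 (0.61 and -0.68). Cluster 1 was thus lowest for Pcolce and highest for Pcolce2 in both libraries. Of 5 other secreted proteases, 3 were higher in cluster 1 and 1, Htra1, was lower, against 2 and 1 in cluster 2, 0 and 1 in cluster 7, and 1 and 0 in cluster 8. Between monocyte-like and macrophage-like cells, 7 of 12 cathepsins and cystatins were lower and 1 higher, beside 10.1% of all genes each way, and Ctsb, a lysosomal cathepsin, was at 558 and 704 against 2772 and 2424 CPM (-2.17).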

How the data were processed

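Single-cell RNA-seq of mesentery from 2 mice was deposited as 1 matrix of UMI counts per gene and cell barcode, not normalized, per the file headers. Alignment with Cell Ranger to mm10 is recorded per the submitters' processing notes, of a version not given in the sources used here. The 2 animals' barcodes were told apart by the number at their end. Cells under 200 genes or over 10% mitochondrial UMIs were removed, and Scrublet removed 39 and 4 doublets. Cells were clustered with scanpy 1.11.5 (2000 variable genes, 30 components, resolution 1.0) without the members. The listed partners, plasminogen, ADAM, cathepsin and other secreted protease genes were also left out, but Vcan and the dissociation genes were not. A cluster was named from at least 4 markers above 2-fold, a number set after the clusters had been seen. Counts were summed per class and library and tested with edgeR 4.0.16, with library as a block, and DESeq2 1.42.0 as an alternative. The scripts were tested on simulated data, with a spread (dispersion 0.1) that was set and not taken from these counts. Log2 changes of 1 were recovered for 18.4% of changed genes across classes and 13.5% between fibroblast-like clusters. For log2 changes of 2 the shares were 88.4% and 75.8%. A gene that was not called is thus not shown to be equal between groups. Both classes of a comparison come from the same animals, which is where the pairing comes from. The members and lists were chosen with earlier results of these data known. All members with at least 100 UMIs were named with levels, and those with 10 to 99 by their UMIs. Count intervals are exact at 95% and cover counting error only.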

Additional observations from a re-analysis of the deposited data

How the results depend on the processing

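Of 77 gene results called, 39 kept their call and direction under every test tried. The counts of members called moved as follows. With DESeq2, fibroblast-like cells had 1 lower member against the mean of the other classes (0 in edgeR) and 5 higher against mesothelial-like cells (9), endothelial-like cells 1 lower (0), pericyte-like cells 0 higher (2), cluster 2 had 2 higher and 1 lower (5 and 5) and cluster 8 had 1 and 1 (3 and 3). Without the replicate block, 1 member was lower against mesothelial-like cells (3), 1 higher in pericyte-like cells (2) and 3 lower in cluster 2 (5). With no filter on low counts, 1 was lower against mesothelial-like cells and 2 were higher in cluster 7 (0). With doublets kept, 1 was lower in endothelial-like cells, 4 were higher in pericyte-like cells, and 2 were higher and 4 lower in monocyte-like cells (9 and 2). At resolution 2.0, 3 were higher in monocyte-like cells, and with members used in the clustering 1 was lower in pericyte-like cells. With the other cells summed, 5 were lower in fibroblast-like and 14 in endothelial-like cells, and 1 was higher and 2 lower in cluster 7. The cause of these shifts was not tested.

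These directions turned. With the other cells summed, the fibroblast-like difference was -0.088 for Timp3, and the endothelial-like ones were -1.17 for Mmp3, -2.90 for Adamts2 and -2.34 for Adamts5. Mmp3 in endothelial-like cells was at -2.76 with doublets kept and ranged from -0.85 without replicate 2 to 2.89 without replicate 1. Between monocyte-like and macrophage-like cells, doublets kept gave -2.06 for Adamts4, -8.20 for Timp3, -4.50 for Mmp2, -6.08 for Adamts2, -1.79 for Adamts1 and -7.38 for Adamts5. Resolution 2.0 gave -1.48 for Adamts4, -0.58 for Timp3, -3.18 for Mmp2, -0.60 for Adamts1 and -0.71 for Adamts5. Cells without a fibroblast marker UMI, a setting chosen after seeing the data, gave -2.13 for Adamts4, -0.91 for Timp3, -1.79 for Adamts2, -1.47 for Adamts1 and -0.19 for Adamts5. The values from that setting rest on few UMIs and carry no test, so their signs are not firm.

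Of all called genes, the share called higher was 70.6% for endothelial-like cells (42.8% with the other cells summed, 83.4% at resolution 2.0) and 49.9% for monocyte-like cells (38.9% with DESeq2, 31.8% with doublets kept, 29.2% at resolution 2.0). It was 72.5% for pericyte-like cells (87.9% with DESeq2, 84.4% without the block), 67.8% for fibroblast-like cells (81.1% with no filter, 79.5% at resolution 2.0), and with the other cells summed 54.5% in cluster 7 (82.7%) and 55.3% in cluster 8 (70.1%). Counts could not be recomputed without either library, since 1 library leaves no residual degrees of freedom, so single-library fold changes carry no test. A fit without the pericyte-like and monocyte-like classes, added after seeing the data, gave 17 and 8 higher members in fibroblast-like and endothelial-like cells. Depth limits the 30 members under 100 UMIs, which were not tested.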
